A study of Mus musculus with 10 samples.

Results

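Interferon-stimulated genes and immunity GTPases were followed in ASZ001 cells, a murine basal cell carcinoma (BCC) line, under an inhibitor of TGFß receptor signaling and under an inhibitor of AP-1. The members are 39 genes picked by name from what is known of the interferon response, but with earlier results of these data known. Their shares beside those of all genes therefore describe this list and are no independent test. Each of the 39 genes was found in both expression tables, which list 17658 genes for the SB431542 experiment and 16719 genes for the T-5224 experiment. The study asked how the TGFß and AP-1 pathways contribute to resistance of BCC to Smoothened inhibitors, and ASZ001 is 1 line, selected to be resistant, with nuclear MRTF. All cells were kept in low serum and treated for 24 h. In the first experiment, 3 libraries of cells given DMSO, the solvent, were compared with 3 libraries of cells given 10 µM SB431542, which blocks the kinase of the type I TGFß receptor ALK5. In the second, 2 DMSO libraries were compared with 2 libraries of cells given 20 µM T-5224, a small molecule made to block DNA binding by AP-1. Each inhibitor had its own DMSO libraries, and the tables were normalized separately, so no test was run between the experiments. The study describes the libraries of a group as biological samples of the one line, and p-values measure the spread between such cultures.

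Interferons are secreted proteins that cells release when they sense viral nucleic acid. Type I interferons bind the receptor chains IFNAR1 and IFNAR2 and activate JAK1 and TYK2, which phosphorylate STAT2. It joins IRF9 in the complex ISGF3, which binds the interferon-stimulated response element (ISRE) in the promoters of target genes. Interferon gamma acts mainly at gamma-activated sites (GAS), and induces IRF1 and the immunity GTPases, which attack the vacuoles of intracellular pathogens. Many cells, keratinocytes included, hold a low tonic level of these transcripts without infection.

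The promoters of 3 genes that were lower with both inhibitors show the element. The letters GAAANNGAA, the core of the ISRE, were searched on both strands in the 250 bases before each RefSeq start of the GRCm38.p6 assembly. The windows below are read 5′ to 3′ on the strand of the gene, with every match to the core in capitals, and their positions come from an exact match on mm9. Isg15 lies on the minus strand at chr4:155574945-155575033 and holds 3 overlapping matches, the nearest beginning 66 bases before the start. Igtp lies on the plus strand at chr11:58012984-58013057, with its match 34 bases before the start. Stat2 lies on the plus strand at chr10:127707304-127707381, with its match on the other strand, 221 bases before the start.
Isg15: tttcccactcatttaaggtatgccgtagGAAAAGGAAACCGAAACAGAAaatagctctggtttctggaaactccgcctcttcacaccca
Igtp: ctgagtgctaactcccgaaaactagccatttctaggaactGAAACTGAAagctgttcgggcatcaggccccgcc
Stat2: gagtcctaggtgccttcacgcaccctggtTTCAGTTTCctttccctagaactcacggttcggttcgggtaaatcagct
Ddx58, the 4th gene lower with both, had no match in its window.

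A RefSeq promoter was matched for 30 of the 39 genes, and the ISRE core was in 13 of these (43.3%) against 8.18% of 27025 genes with a RefSeq promoter. A gene was counted when the window of any of its RefSeq starts held a match. The holders were Stat2, Ifih1, Trim25, Ifit1, Ifit3, Oas1a, Rsad2, Bst2, Isg15, Gbp2, Gbp3, Igtp and Irgm1. The GAS letters TTCNNNGAA were in 7 (23.3%), among them Irf1, Igtp and Ifit2, against 8.13% of all matched genes. The AP-1 letters TGANTCA were in 6 (20.0%) against 7.82%, in the windows of Ifit3, Rsad2, Gbp2, Irgm1, Xaf1 and Ifi35. The ISRE core, which can overlap a GAS match, was in 9 of the 17 matched members that were lower with T-5224 (52.9%). Of all matched genes, it was in 6.99% of those tested with T-5224 and in 8.29% of those that fell more than 2-fold. It was in 1 of the 4 matched members that were tested and not lower. The GAS letters were in 5 of the same 17 members (29.4%) and in 1 of the 4 members not lower. Of all matched genes, they were in 7.04% of those tested with T-5224 and in 6.37% of those that fell more than 2-fold. The AP-1 letters were in 4 of the same 17 members (23.5%) and in 1 of the 4 members not lower. Of all matched genes, they were in 5.29% of those tested with T-5224 and in 7.93% of those that fell more than 2-fold. These shares describe letters and not occupied sites.

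RPKM, reads per kilobase of gene scaled to library size, were tested on the log2(RPKM + 0.5) scale with limma for genes with a mean of at least 1 RPKM over a table, 10842 and 10809 genes. All fold changes and standard errors (SE) below are on that scale, which understates the change of low genes, and a gene passed with an adjusted p under 0.05. Of the 39 members, 18 were tested with SB431542 and 26 with T-5224, and the rest were too low. Libraries held 31.9 to 51.4 M reads. The cells were epithelial, with summed RPKM of 9 epithelial markers of 11364 to 11568 in the first DMSO libraries and 15650 to 16384 in the second. This sum was 7977 to 8544 with SB431542 and 2751 to 2894 with T-5224, and most of it was Krt5, Krt14 and Krt17. Of the 9 markers, 5 passed as lower and 2, Krt15 and Epcam, as higher with SB431542, and 8 as lower and Epcam as higher with T-5224. Their part in the results below was not tested. Summed RPKM of the immune cell markers listed (7 of 11 names, then 5 of 11) was 9.31 to 12.4 and 9.85 to 10.2 in the DMSO and SB431542 libraries of the first experiment, and 19.2 to 21.5 and 35.4 to 35.5 in the DMSO and T-5224 libraries of the second experiment. Nearly all of it was Cd68 and Cd14, and Ptprc, which marks all leukocytes, was at most 0.012 RPKM in any library. The endothelial marker Pecam1 was lower with both inhibitors, and the sums of listed endothelial markers were 5.29 to 6.74 and 2.74 to 2.99 RPKM in the first experiment and 10.9 to 12.0 and 4.13 to 4.67 RPKM in the second, in the order DMSO, treated. Those of fibroblast markers, mostly Dcn, were 2.45 to 2.64 and 3.69 to 4.14, then 2.54 to 2.58 and 2.65 to 2.84 RPKM. The part of these markers in the results was likewise not tested.

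The DMSO libraries of the SB431542 experiment differed among themselves in these genes. The highest DMSO library was 2.53-fold above the lowest in the median over the 18 genes tested, against 1.17-fold over all genes tested, and the ratio ran from 1.08 for Psmb10 to 5.95 for Usp18. DMSO library 3 was the lowest of the 3 in 17 of 18 genes (36 of 39 when untested members are counted) and in 31.1% of all genes. DMSO library 2 was the highest in 14 of 18 and in 27.4% of all genes. On the log2 scale, the median distance of the members from the DMSO mean was 0.18, 0.50 and -0.69 in DMSO libraries 1, 2 and 3, while the median over all genes stayed within 0.02 of 0. A spread of the same kind was seen among treated libraries, where SB431542 library 2 was the highest in 16 of 18 genes, and the median distances were -1.12, -0.44 and -1.34. DMSO library 3 therefore lay within the range of the SB431542 libraries, below SB431542 library 2 and above the other two.

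Replicates of the T-5224 experiment lay closer together. The higher DMSO library was 1.11-fold above the lower in the median over 26 genes, against 1.06-fold over all genes, and the ratio ran from 1.01 for Irf7 to 2.07 for Ifit1. Counting all 39 members, 32 differed by less than 1.5-fold between DMSO libraries and 3 by more than 2-fold. The same counts were 7 and 27 in the first experiment, where 2 members were at 0 in a DMSO library. Median distances from the DMSO mean were -0.05 and 0.05 in the DMSO libraries and -1.46 and -1.61 in the T-5224 libraries.

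**Figure D1:**
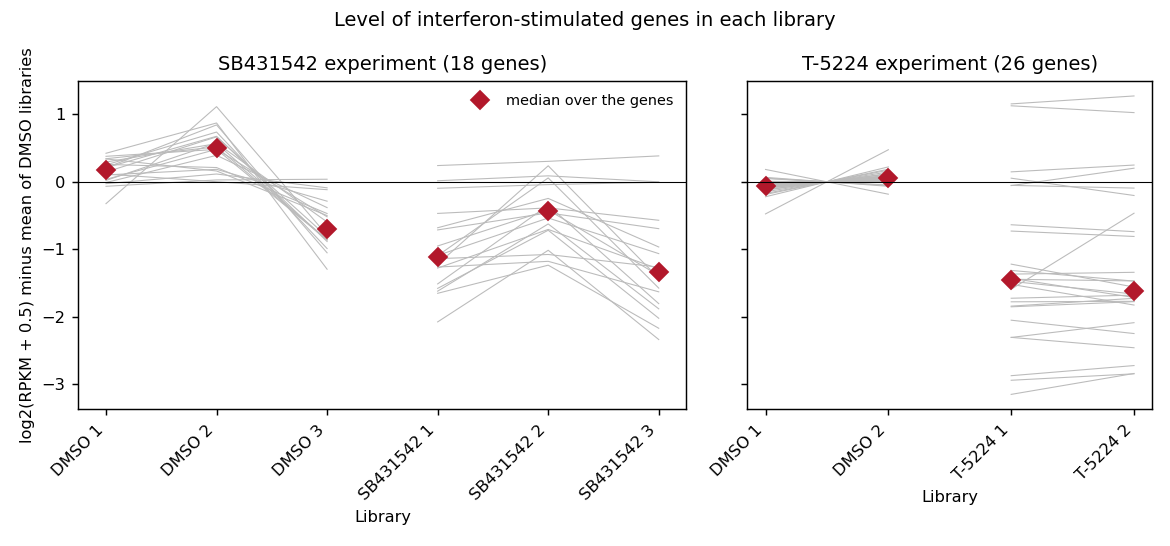
Distance of each tested gene from the mean of its DMSO libraries, as log2(RPKM + 0.5), by library, with 1 grey line for each gene and a diamond for the median over the 18 or 26 genes. DMSO library 3 of the SB431542 experiment has a median of -0.69, below the -0.44 of SB431542 library 2, whereas the T-5224 libraries at -1.46 and -1.61 lie far from their DMSO libraries.

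T-5224 lowered most of the genes and raised 3 of them. Of 26 genes tested, 20 were lower (76.9%), where 39.4% of all genes tested were lower, and 18 of them by more than 2-fold (69.2%), where the share of all genes was 10.6%. Irf1, Mx2 and Ifi27 were higher, where 40.3% of all genes were higher, and of these Irf1 and Mx2 rose more than 2-fold, where the share of all genes was 10.4%. Rsad2, Ifi44 and Psmb10 did not pass. The median log2 fold change was -1.52 over the 26 genes and 0.00 over all genes tested, whose quartiles were -0.50 and 0.50. Of the 26, 9 reached the mean of 1 RPKM through 1 group alone (Irf7, Ifih1, Ifit1, Oas1a, Gbp2, Parp9, Rtp4 and Lgals3bp through DMSO, Mx2 through T-5224). Those that entered through DMSO are all among the 18 that fell more than 2-fold. The 17 genes with a mean of at least 1 RPKM in both groups were therefore counted apart. Of these, 12 fell, 10 of them by more than 2-fold. The shares that fell, or fell more than 2-fold, among all genes meeting this limit were not counted, so 69.2% against 10.6% is no like comparison. Among all 39 members, tested or not, both T-5224 libraries were below both DMSO libraries in 30 (39.0% of all genes listed), above them in 5 (36.5% of all genes listed) and overlapped them in 4. Among the 26 tested, both T-5224 libraries were below both DMSO libraries in 20, where 44.5% of all genes tested did the same, and above them in 3, where 45.1% did. Leaving out any 1 library leaves 1 library in a group, so only signs are given. The log2 fold change was negative in 20 of 25 members without DMSO library 1 and 19 of 24 without DMSO library 2. It was negative in 24 of 28 without T-5224 library 1 and 25 of 29 without T-5224 library 2. There Ifit3 and Dtx3l, and without T-5224 library 2 also Oasl2, entered the test through DMSO alone. The like shares of all genes were not counted.

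**Figure D2:**
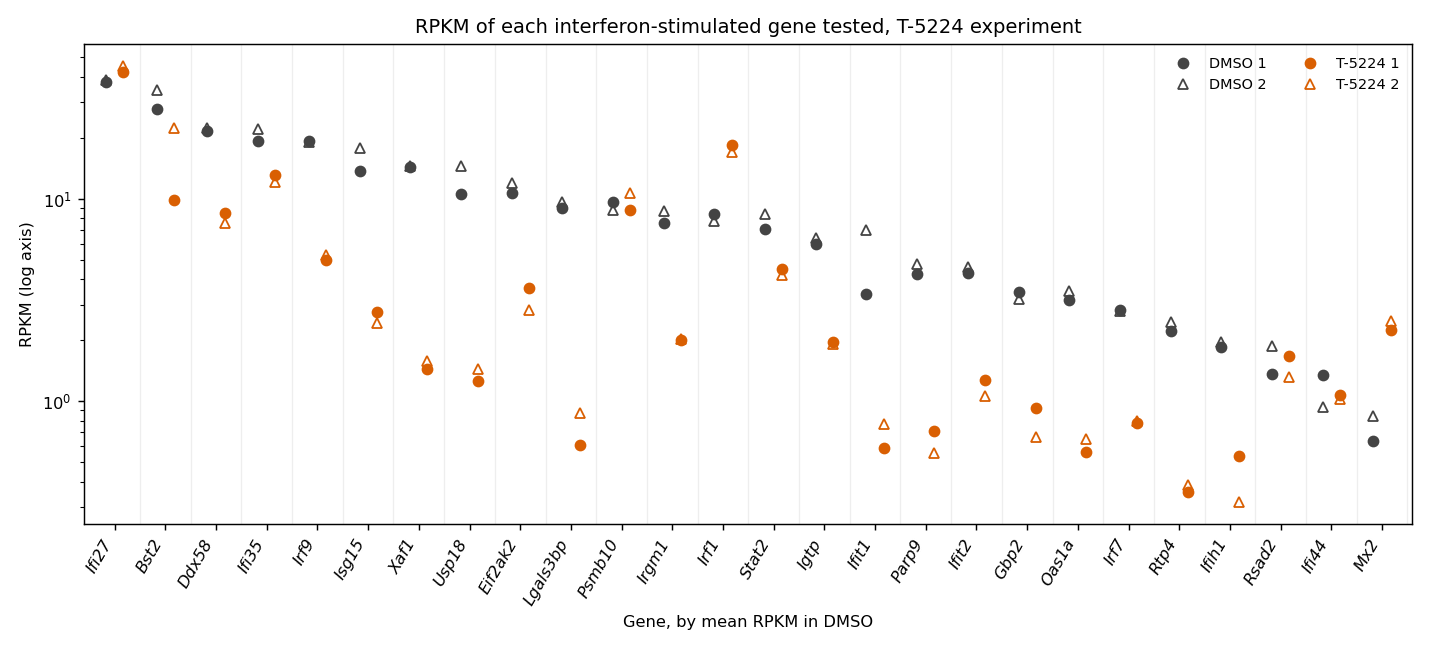
RPKM (log axis) of the 26 genes tested in each library of the T-5224 experiment, ordered by mean RPKM in DMSO, with DMSO libraries in grey and T-5224 libraries in orange. The orange symbols lie below the grey in 20 genes, above them in Irf1, Mx2 and Ifi27, and among them in Psmb10, Rsad2 and Ifi44.

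With SB431542, 4 of 18 genes tested passed as lower (22.2%), where 10.0% of all genes tested were lower, and Psmb10 alone passed as higher, where the share was 10.2%. The 4 were Stat2, Ddx58, Isg15 and Igtp, and Isg15 and Igtp fell more than 2-fold, as did 0.581% of all genes. None of the members rose more than 2-fold, which 0.231% of all genes did. The log2 fold change was negative in 16 of 18 genes, against 48.4% of all genes, and its median was -0.91, against 0.01 over all genes. Every SB431542 library was below every DMSO library in 4 of the 18, namely Stat2, Ddx58, Ifit1 and Igtp, where 21.3% of all genes tested did the same, and above in 1, where 23.9% did. Over all 39 members, 16 lay wholly below (16.2% of all genes listed), 1 above (16.6%) and 22 overlapped. Ifit1, Usp18, Igtp, Parp9 and Lgals3bp reached a mean of 1 RPKM in DMSO alone, also where they pass below with a library left out. Of the 13 genes with a mean of at least 1 RPKM in both groups, Stat2, Ddx58 and Isg15 fell, and the like share of all genes was not counted.

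The calls with SB431542 depended on single libraries. Without DMSO library 3, 14 of 19 genes passed as lower (limma), where 7.96% of all genes did. Among these 14, Gbp2, Ifit1, Usp18, Igtp, Parp9 and Lgals3bp reached a mean of 1 RPKM in DMSO alone. The share of all genes with such a limit in both groups was not counted. Without DMSO library 1, 6 of 18 passed as lower, Ifit1 and Igtp among them, where 17.5% of all genes did. Leaving out SB431542 library 2 left 1 of 19, Ddx58, and 4.52% of all genes. Without DMSO library 2, SB431542 library 1 or SB431542 library 3, none of 16, 19 and 19 genes passed as lower, where 6.21%, 4.90% and 3.98% of all genes did. Of these genes 5, 9 and 7 were lower at an unadjusted p under 0.05 (limma). With no filter on low values, none of the 39 members passed as lower, where 5.32% of all genes did, and 27 had an unadjusted p under 0.05, and in the main comparison 13 of 18 did. The share of all genes at an unadjusted p under 0.05 was not counted, so the unadjusted counts cannot be set against a background. When 1 library was left out, the fold change was negative in 15 of 18 genes (without DMSO library 1) to 18 of 19 (without DMSO library 3).

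**Figure D3:**
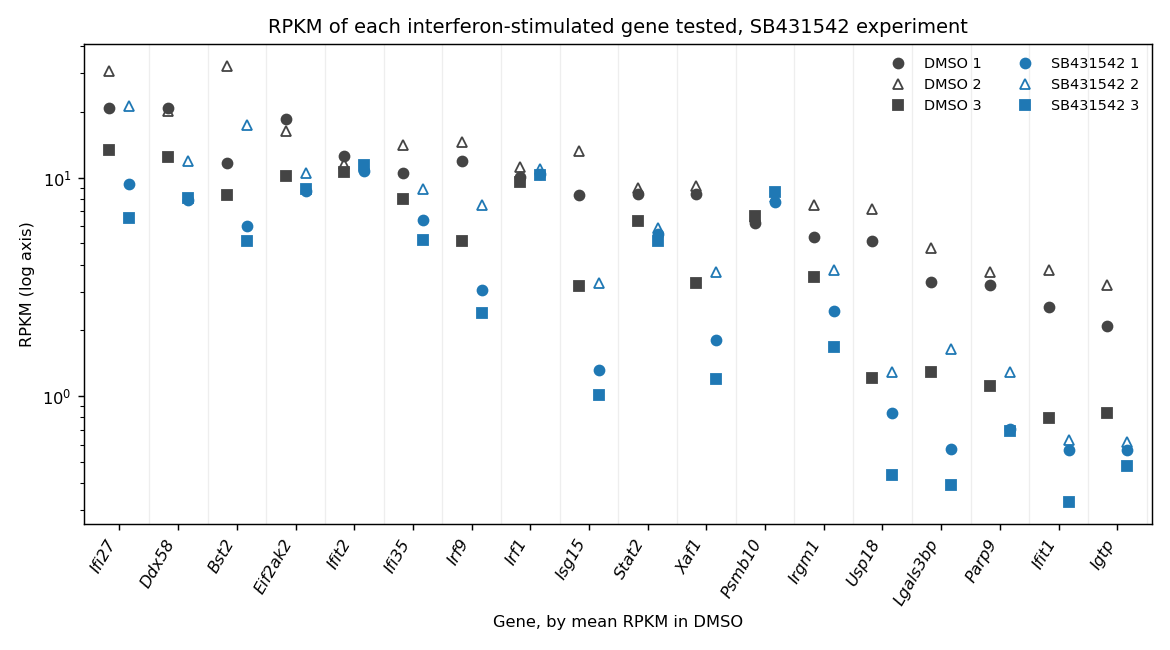
RPKM (log axis) of the 18 genes tested in each library of the SB431542 experiment, ordered by mean RPKM in DMSO, with a symbol for each replicate. DMSO library 3 (grey squares) is the lowest DMSO library in 17 of the genes, and only in Stat2, Ddx58, Ifit1 and Igtp do all blue symbols lie below all grey ones.

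Among the transcription factors, Stat2 and Irf9 are subunits of ISGF3, and Irf7 amplifies the production of type I interferon. Irf9 (mm9 chromosome 14, 56222408 to 56228867) was at 19.4 and 19.1 RPKM in the second pair of DMSO libraries, a ratio of 1.01, and at 4.96 and 5.25 RPKM with T-5224. It fell 3.52-fold (log2 fold change -1.82 ± 0.07 SE, limma adjusted p = 1.07e-09). Around SB431542, Irf9 was at 12.0, 14.6 and 5.11 RPKM in the DMSO libraries, a ratio of 2.86 between highest and lowest, and at 3.06, 7.50 and 2.41 RPKM in the treated libraries. DMSO library 3 was below SB431542 library 2, and the change of -1.22 ± 0.46 did not pass (limma adjusted p = 0.101). Stat2 (chromosome 10, 127707629 to 127729905) was at 8.44, 8.97 and 6.33 RPKM in DMSO, a ratio of 1.42, and at 5.52, 5.87 and 5.11 RPKM with SB431542. Its groups did not overlap, and it fell 1.39-fold (-0.48 ± 0.13, limma adjusted p = 0.0370), a call kept without DMSO library 1 or DMSO library 3 and lost without any of the others, with adjusted p up to 0.137. With T-5224, Stat2 went from 7.12 and 8.46 RPKM, a ratio of 1.19, to 4.48 and 4.21 RPKM, a 1.71-fold fall (-0.77 ± 0.10, limma adjusted p = 1.73e-05). Irf7 differed least between DMSO libraries, at 2.81 and 2.80 RPKM, and was at 0.778 and 0.802 RPKM with T-5224 (-1.36 ± 0.12, limma adjusted p = 6.77e-07). It was not tested with SB431542, where the DMSO libraries held 1.33, 1.60 and 0.616 RPKM, a ratio of 2.60, and the treated libraries 0.151 to 0.584 RPKM.

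Irf1 went the other way. This factor, which binds elements much like the ISRE and responds strongly to interferon gamma, was at 8.45 and 7.80 RPKM in the DMSO libraries, a ratio of 1.08, and at 18.3 and 17.1 RPKM with T-5224. It rose 2.11-fold (1.08 ± 0.07, limma adjusted p = 1.06e-07). In the SB431542 experiment it was among the steadiest of the genes, at 10.0, 11.1 and 9.60 RPKM in DMSO, a ratio of 1.16, and at 10.4, 10.9 and 10.2 RPKM in treated libraries, a change of 0.03 ± 0.07 that did not pass (limma adjusted p = 0.753). Without DMSO library 3 that value was -0.01.

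The RNA sensors Ddx58 (which encodes RIG-I) and Ifih1 (MDA5) detect viral double-stranded RNA, Dhx58 (LGP2) modulates them, and Trim25 is a ubiquitin ligase that acts on RIG-I. Ddx58 (chromosome 4, 40150806 to 40186861) was at 20.9, 20.3 and 12.4 RPKM in DMSO, a ratio of 1.68, and at 7.91, 11.9 and 8.06 RPKM with SB431542. The lowest DMSO library lay just above the highest treated one, and the gene fell 1.86-fold (-0.90 ± 0.22, limma adjusted p = 0.0302). This call was lost without DMSO library 2, SB431542 library 1 or SB431542 library 3, with adjusted p up to 0.118. T-5224 took Ddx58 from 21.6 and 22.3 RPKM, a ratio of 1.03, to 8.50 and 7.57 RPKM, a 2.63-fold fall (-1.39 ± 0.07, limma adjusted p = 1.23e-08). Ifih1 fell from 1.86 and 1.97 RPKM, a ratio of 1.06, to 0.534 and 0.317 RPKM (-1.39 ± 0.15, limma adjusted p = 4.74e-06). Neither low gene of this role was tested. Dhx58 was at 0.711 and 1.20 RPKM in DMSO, a ratio of 1.69, and at 0.240 and 0.326 RPKM with T-5224. Trim25 was close to 0 in both tables, at most 0.018 RPKM in any library. The DMSO libraries of the first experiment held 0.561 to 1.22 RPKM of Ifih1, a ratio of 2.17, and 0.225 to 0.522 RPKM of Dhx58, a ratio of 2.32, and for both genes all 3 SB431542 libraries were lower, at 0.248 to 0.510 and 0.142 to 0.179 RPKM.

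The antiviral effectors act on viral RNA, particles and replication. Ifit1, Ifit2 and Ifit3, which lie near each other on chromosome 19 and encode proteins that recognize or restrict foreign RNA, had unlike patterns. Ifit1 was at 3.39 and 7.02 RPKM in the second pair of DMSO libraries, the widest ratio of the tested genes there at 2.07, and at 0.590 and 0.769 RPKM with T-5224. It fell (-2.20 ± 0.24, limma adjusted p = 4.49e-06). With SB431542 the groups did not overlap, at 2.55, 3.78 and 0.791 RPKM in DMSO, a ratio of 4.78, and 0.567, 0.632 and 0.327 RPKM in treated libraries, and the change of -1.36 ± 0.40 just missed (limma adjusted p = 0.0504). Without DMSO library 3 it was -1.85 and passed (limma adjusted p = 0.00347), though only its DMSO libraries reached a mean of 1 RPKM. It also passed without DMSO library 1. With any 1 of the SB431542 libraries left out it did not pass, with limma adjusted p up to 0.167, and without DMSO library 2 it was too low to test. Ifit2 was nearly level across the first experiment, with DMSO libraries at 12.5, 11.5 and 10.6 RPKM, a ratio of 1.18, and treated libraries at 10.7, 11.2 and 11.5 RPKM, and did not pass (-0.05 ± 0.07, limma adjusted p = 0.668). In the second it went from 4.29 and 4.605 RPKM, a ratio of 1.07, to 1.27 and 1.06 RPKM, a 2.97-fold fall (-1.57 ± 0.11, limma adjusted p = 1.53e-07). Ifit3 was not tested and varied most between the DMSO libraries that T-5224 was compared with, at 0.808 and 1.999 RPKM, a ratio of 2.47, against 0.347 and 0.322 RPKM with T-5224. Around SB431542 its DMSO ratio was 2.27, from 0.664 to 1.51 RPKM, and the treated libraries held 0.493 to 0.561 RPKM. A near-identical gene, Ifit3b, is listed beside it, and reads of the pair may be divided in ways the tables do not show.

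Eif2ak2 encodes PKR, a kinase that stops translation on sensing double-stranded RNA. It was at 10.7 and 12.0 RPKM in DMSO, a ratio of 1.12, and at 3.63 and 2.83 RPKM with T-5224, a 3.19-fold fall (-1.68 ± 0.11, limma adjusted p = 6.20e-08). With SB431542 it did not pass (-0.62 ± 0.20, limma adjusted p = 0.0677), at 18.6, 16.4 and 10.2 RPKM in DMSO, a ratio of 1.83, and 8.71, 10.47 and 8.83 RPKM in treated libraries. Only SB431542 library 2 reached into the DMSO range, above DMSO library 3. Without DMSO library 3, Eif2ak2 passed at -0.87 (limma adjusted p = 0.00481). With any other library left out it did not pass, with limma adjusted p up to 0.192. Bst2 encodes tetherin, which holds budding virus at the cell surface, and its libraries in the first experiment varied most in RPKM. In the first experiment it was at 11.7, 32.5 and 8.30 RPKM in DMSO, a ratio of 3.92, and at 6.02, 17.5 and 5.15 RPKM with SB431542, and the change of -0.81 ± 0.57 did not pass (limma adjusted p = 0.347). In the second it went from 27.9 and 34.3 RPKM, a ratio of 1.23, to 9.91 and 22.3 RPKM, and passed as 2.04-fold lower (-1.03 ± 0.26, limma adjusted p = 0.00305). The change was -0.47 without T-5224 library 1 and -1.59 without T-5224 library 2, and with no filter on low values it did not pass (limma adjusted p = 0.0786).

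Oas1a encodes an enzyme that makes the 2-5A signal for RNA decay. It was at 3.15 and 3.49 RPKM in the second pair of DMSO libraries, a ratio of 1.11, and at 0.562 and 0.651 RPKM in treated libraries, a 3.45-fold fall (-1.79 ± 0.12, limma adjusted p = 9.84e-08). Reads shared with its close relatives Oas1b, Oas1c and Oas1g make its exact level uncertain. In the SB431542 experiment Oas1a had the widest DMSO ratio of all members, 9.71, with 0.786, 1.01 and 0.104 RPKM, against 0 to 0.456 RPKM in treated libraries, and was too low to test. Oasl2, its relative, was below 1 RPKM on average in both tables. Its DMSO libraries held 0.094 to 0.452 RPKM (a ratio of 4.81) and 0.960 to 1.46 RPKM (a ratio of 1.52), and the T-5224 libraries 0.651 and 0.430 RPKM.

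Rsad2, Mx2, Mx1 and Cmpk2 did not move together with T-5224. Rsad2 encodes viperin, which makes a chain-terminating nucleotide, and lies beside Cmpk2, a nucleotide kinase, on chromosome 12. Rsad2 overlapped between groups, at 1.36 and 1.86 RPKM in DMSO, a ratio of 1.37, and 1.68 and 1.32 RPKM with T-5224 (-0.07 ± 0.15, limma adjusted p = 0.655). Its sign turned without DMSO library 2 or T-5224 library 2. Cmpk2, its neighbour, was at 0.818 and 1.16 RPKM in DMSO, a ratio of 1.41, and at 0.253 and 0.101 RPKM with T-5224, below the level tested. Mx2, a dynamin-like GTPase that traps viral components, rose from 0.632 and 0.841 RPKM, a ratio of 1.33, to 2.25 and 2.48 RPKM (1.22 ± 0.13, limma adjusted p = 5.61e-06), and entered the test through the treated libraries. Mx1, of the same family, was at 0.067 and 0.164 RPKM in DMSO, a ratio of 2.45, and at 0.138 and 0.202 RPKM with T-5224, which overlap.

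These 4 genes were too low to test with SB431542. All 3 treated libraries were below all 3 DMSO libraries for Rsad2 (0.127 to 0.244 against 0.396 to 1.40 RPKM, a DMSO ratio of 3.53), Cmpk2 (0.075 to 0.166 against 0.231 to 0.965 RPKM, a DMSO ratio of 4.18) and Mx2 (0.198 to 0.392 against 0.519 to 0.621 RPKM, a DMSO ratio of 1.20). Mx1 touched at the edge, with 0.051 RPKM both in DMSO library 2 and in SB431542 library 3 and a DMSO ratio of 2.31. Mx2 thus lay below its DMSO libraries with SB431542 and above them with T-5224, and the difference between the inhibitors was not tested.

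Isg15 and Usp18 form one system. ISG15 is a ubiquitin-like protein joined to other proteins, and USP18 removes it and also dampens signaling at the type I interferon receptor. Isg15 (chromosome 4, 155573533 to 155574927), whose window with 3 ISRE cores is printed above, was at 8.36, 13.3 and 3.19 RPKM in DMSO, a ratio of 4.16, and at 1.31, 3.29 and 1.01 RPKM with SB431542. SB431542 library 2 lay above DMSO library 3, so the groups overlapped, and the gene passed as 3.51-fold lower (-1.81 ± 0.51, limma adjusted p = 0.0442). The call was kept without DMSO library 1 or DMSO library 3 and lost without any other library, with adjusted p up to 0.156. With T-5224 it went from 13.7 and 17.9 RPKM, a ratio of 1.31, to 2.76 and 2.43 RPKM, a 5.23-fold fall (-2.39 ± 0.12, limma adjusted p = 5.95e-09).

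Usp18 (chromosome 6, 121195924 to 121220934) had the widest DMSO ratio of the genes tested with SB431542, 5.95, at 5.15, 7.21 and 1.21 RPKM, against 0.837, 1.29 and 0.433 RPKM in treated libraries. Its change of -1.69 ± 0.53 did not pass (limma adjusted p = 0.0610), and without DMSO library 3 it was -2.34 and passed (limma adjusted p = 0.00475). With any other library left out it did not pass, with limma adjusted p up to 0.193. T-5224 took it from 10.6 and 14.6 RPKM, a ratio of 1.38, to 1.26 and 1.45 RPKM, a 6.98-fold fall (-2.80 ± 0.13, limma adjusted p = 4.53e-09). Herc6, which encodes the main mouse ligase for ISG15, was too low to test, at 0.454 and 0.504 RPKM in DMSO, a ratio of 1.11, and at 0.723 and 0.641 RPKM with T-5224. With SB431542 its order was the reverse, at 0.573 to 0.684 RPKM against 0.765 to 1.12 RPKM in DMSO, a ratio of 1.46.

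Of the immunity GTPases, Igtp and Irgm1 were expressed highest. IGTP (also called IRGM3) and IRGM1 regulate the family at membranes, while GBP2 and GBP3 are guanylate-binding proteins that coat pathogen vacuoles. Igtp (chromosome 11, 58013058 to 58021093) was at 2.1, 3.23 and 0.838 RPKM in DMSO, a ratio of 3.86, and at 0.566, 0.613 and 0.477 RPKM with SB431542. All treated libraries were below all DMSO libraries, and it fell 2.24-fold (-1.16 ± 0.33, limma adjusted p = 0.0461), though only its DMSO libraries reached a mean of 1 RPKM. The call was kept without DMSO library 1 or DMSO library 3 and lost without any SB431542 library, with adjusted p up to 0.148, and without DMSO library 2 the gene was too low to test. In the T-5224 experiment Igtp went from 5.97 and 6.39 RPKM, a ratio of 1.07, to 1.95 and 1.91 RPKM, a 2.75-fold fall (-1.46 ± 0.10, limma adjusted p = 6.61e-08).

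Irgm1 (chromosome 11, 48675470 to 48685185) fell 3.43-fold with T-5224, from 7.601 and 8.69 RPKM, a ratio of 1.14, to 2.01 and 2.02 RPKM (-1.78 ± 0.10, limma adjusted p = 1.46e-08). Around SB431542 it was at 5.37, 7.50 and 3.50 RPKM in DMSO, a ratio of 2.15, and at 2.46, 3.78 and 1.69 RPKM in treated libraries, with SB431542 library 2 above DMSO library 3, and did not pass (-0.92 ± 0.30, limma adjusted p = 0.0695). Gbp2 fell with T-5224 from 3.46 and 3.20 RPKM, a ratio of 1.08, to 0.920 and 0.665 RPKM (-1.57 ± 0.13, limma adjusted p = 5.01e-07). It was just under the level tested in the first experiment, with DMSO libraries at 1.61, 1.62 and 0.763 RPKM, a ratio of 2.12, and treated libraries at 0.567 to 0.672 RPKM.

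The last of these GTPases were scarce. Gbp3 was at 0.846 and 0.919 RPKM in DMSO, a ratio of 1.09, and at 0.204 and 0.137 RPKM with T-5224, and its DMSO ratio in the first experiment was 5.42, from 0.130 to 0.705 RPKM, over treated libraries of 0.030 to 0.370 RPKM. Iigp1 was at most 0.171 RPKM in any library, and at 0 in DMSO library 3 of the first experiment.

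Parp9 and Dtx3l encode partners that add ADP-ribose and ubiquitin in the interferon response, and Parp14 is another ADP-ribosyltransferase. Parp9 and Dtx3l overlap on opposite strands of chromosome 16, from 35938556 to 35939237, and how strand was used in counting is not given in the sources used here. Parp9 fell 4.45-fold with T-5224, from 4.26 and 4.78 RPKM, a ratio of 1.12, to 0.708 and 0.553 RPKM (-2.15 ± 0.12, limma adjusted p = 2.11e-08). With SB431542 it was at 3.21, 3.69 and 1.11 RPKM in DMSO, a ratio of 3.32, and at 0.705, 1.29 and 0.694 RPKM in treated libraries, and did not pass (-1.09 ± 0.36, limma adjusted p = 0.0682). Dtx3l and Parp14 were too low to test and lower in both T-5224 libraries than in both DMSO libraries, Dtx3l at 0.182 and 0.240 against 1.39 and 1.67 RPKM (a DMSO ratio of 1.20) and Parp14 at 0.218 and 0.244 against 0.689 and 1.05 RPKM (a DMSO ratio of 1.53). In the first experiment, DMSO libraries ranged from 0.407 to 1.44 RPKM for Dtx3l, a ratio of 3.55, and from 0.257 to 0.835 RPKM for Parp14, a ratio of 3.25. The SB431542 libraries held 0.264 to 0.442 RPKM of Dtx3l, which overlaps, and 0.069 to 0.184 RPKM of Parp14, which does not.

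The immunoproteasome subunits, which shape peptides for MHC class I, differed among themselves. Psmb10 was at 6.18, 6.64 and 6.69 RPKM in DMSO, the narrowest ratio of the tested genes at 1.08, and at 7.78, 8.14 and 8.64 RPKM with SB431542, all above DMSO. It rose 1.24-fold (0.31 ± 0.07, limma adjusted p = 0.0184), a call lost without SB431542 library 2 or SB431542 library 3 (limma adjusted p = 0.0749 and 0.0819). In the T-5224 experiment it overlapped, at 9.66 and 8.77 RPKM in DMSO, a ratio of 1.10, and 8.84 and 10.7 RPKM in treated libraries (0.07 ± 0.09, limma adjusted p = 0.487). Psmb9, below the level tested, was at 0.893 and 1.11 RPKM in DMSO, a ratio of 1.24, and at 0.265 and 0.352 RPKM with T-5224, and in the first experiment its DMSO ratio was 1.48, from 0.583 to 0.861 RPKM, with treated libraries at 0.301 to 0.716 RPKM. Psmb8 was at most 0.132 RPKM in any library, with DMSO ratios of 2.90 and 1.09.

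Among the other induced genes, Lgals3bp and Xaf1 had the most negative fold changes with T-5224 of the members tested, though Lgals3bp reached a mean of 1 RPKM in DMSO alone. Lgals3bp (chromosome 11, 118254065 to 118263406), which encodes a secreted galectin-3-binding glycoprotein, went from 9.05 and 9.63 RPKM, a ratio of 1.06, to 0.604 and 0.869 RPKM (-3.00 ± 0.12, limma adjusted p = 1.07e-09). Xaf1 (chromosome 11, 72115131 to 72127235), an antagonist of the apoptosis inhibitor XIAP, went from 14.3 and 14.5 RPKM, a ratio of 1.01, to 1.44 and 1.57 RPKM, a 7.45-fold fall (-2.90 ± 0.09, limma adjusted p = 1.07e-10). In both genes the DMSO libraries were nearly alike, and the treated libraries were far below them. With SB431542 neither passed. Lgals3bp was at 3.32, 4.77 and 1.28 RPKM in DMSO, a ratio of 3.71, and at 0.571, 1.64 and 0.393 RPKM in treated libraries (-1.38 ± 0.45, limma adjusted p = 0.0675). Xaf1 was at 8.45, 9.11 and 3.29 RPKM in DMSO, a ratio of 2.77, and at 1.80, 3.68 and 1.19 RPKM in treated libraries (-1.44 ± 0.43, limma adjusted p = 0.0514). For both, SB431542 library 2 was above DMSO library 3, and both passed without DMSO library 3. Xaf1 also passed without DMSO library 1. With any other library left out neither passed, with limma adjusted p up to 0.210 for Lgals3bp and 0.172 for Xaf1.

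Rtp4, a chaperone of receptors, fell with T-5224 from 2.21 and 2.46 RPKM, a ratio of 1.11, to 0.355 and 0.383 RPKM (-1.70 ± 0.13, limma adjusted p = 2.66e-07), and was too low to test with SB431542, with DMSO libraries from 0.250 to 1.40 RPKM, a ratio of 5.61, and treated libraries from 0.153 to 0.394 RPKM. Ifi35 fell 1.61-fold with T-5224, from 19.3 and 22.1 RPKM, a ratio of 1.15, to 13.1 and 12.2 RPKM (-0.69 ± 0.08, limma adjusted p = 7.79e-06). It did not pass with SB431542 (-0.63 ± 0.23, limma adjusted p = 0.0937), at 10.52, 14.1 and 8.02 RPKM in DMSO, a ratio of 1.76, and 6.42, 8.86 and 5.18 RPKM in treated libraries. Ifi44 had libraries that overlapped in the T-5224 experiment, at 1.35 and 0.931 RPKM in DMSO, a ratio of 1.45, and 1.07 and 1.02 RPKM in treated libraries (-0.07 ± 0.15, limma adjusted p = 0.666). In the first experiment Ifi44 was untested and lay at 0.279 to 0.976 RPKM in DMSO, a ratio of 3.50, above every SB431542 library at 0.021 to 0.189 RPKM.

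Ifi27 was the most abundant member in the T-5224 experiment and did not fall there. It was at 37.8 and 38.4 RPKM in DMSO, a ratio of 1.02, and at 42.3 and 45.4 RPKM with T-5224, a 1.15-fold rise (0.20 ± 0.06, limma adjusted p = 0.00823). The call was lost without T-5224 library 2 (limma adjusted p = 0.0965) and with quantile normalization (limma adjusted p = 0.160). With SB431542 it was at 20.8, 30.7 and 13.4 RPKM in DMSO, a ratio of 2.30, and at 9.31, 21.3 and 6.53 RPKM in treated libraries (-0.87 ± 0.44, limma adjusted p = 0.194).

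Side by side over the 18 genes tested with both inhibitors, 15 had a negative log2 fold change with each. The value with T-5224 was the lower of the pair in 16 genes, Irf1 and Ifi27 being the others. Stat2, Ddx58, Isg15 and Igtp passed as lower with both. For none of these counts was the like share of all genes counted, so they cannot be set against a background. The experiments differ in dose, in library number and in spread, and this difference in size was not tested.

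**Figure D4:**
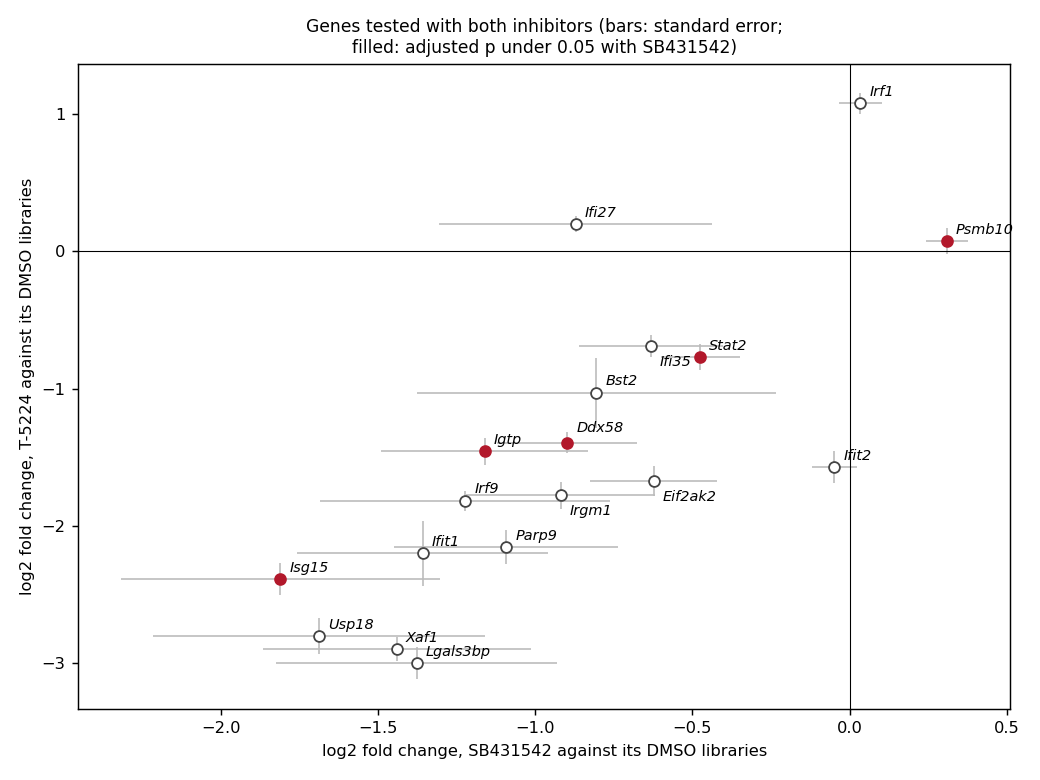
Log2 fold change against DMSO with SB431542 (x axis) and with T-5224 (y axis) for the 18 genes tested with both, with bars of 1 SE, filled where the adjusted p with SB431542 was under 0.05. Of these genes 15 lie below 0 on both axes, with horizontal bars longer than vertical ones except in Ifit2, while Irf1, Ifi27 and Psmb10 lie above 0 on the T-5224 axis.

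The pathway around these genes was read from lists of interferon ligands, receptors, transducers, other IRF factors, sensors and further interferon-stimulated genes, 137 names in all. With SB431542, 6 of 61 genes tested were lower and 2 higher, none of them more than 2-fold, and with T-5224, 28 of 65 were lower and 22 higher, 11 and 10 of them more than 2-fold. Of all genes tested, 10.0% were lower and 10.2% higher with SB431542, and 39.4% were lower and 40.3% higher with T-5224, 10.6% and 10.4% more than 2-fold. Each SB431542 call in these lists was lost when a certain single library was left out. The highest limma adjusted p then ran from 0.0523 for Ptpn6 to 0.168 for Jak1. Receptor genes did not pass with SB431542 (0 of 6 by limma, 1 at an unadjusted p under 0.05). With T-5224, Ifnar2 rose from 15.2 and 13.6 to 28.3 and 28.1 RPKM (0.94 ± 0.07, limma adjusted p = 1.61e-07) and Ifngr2 was 1.18-fold lower, and both are named here after their values were seen.

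**Figure D5:**
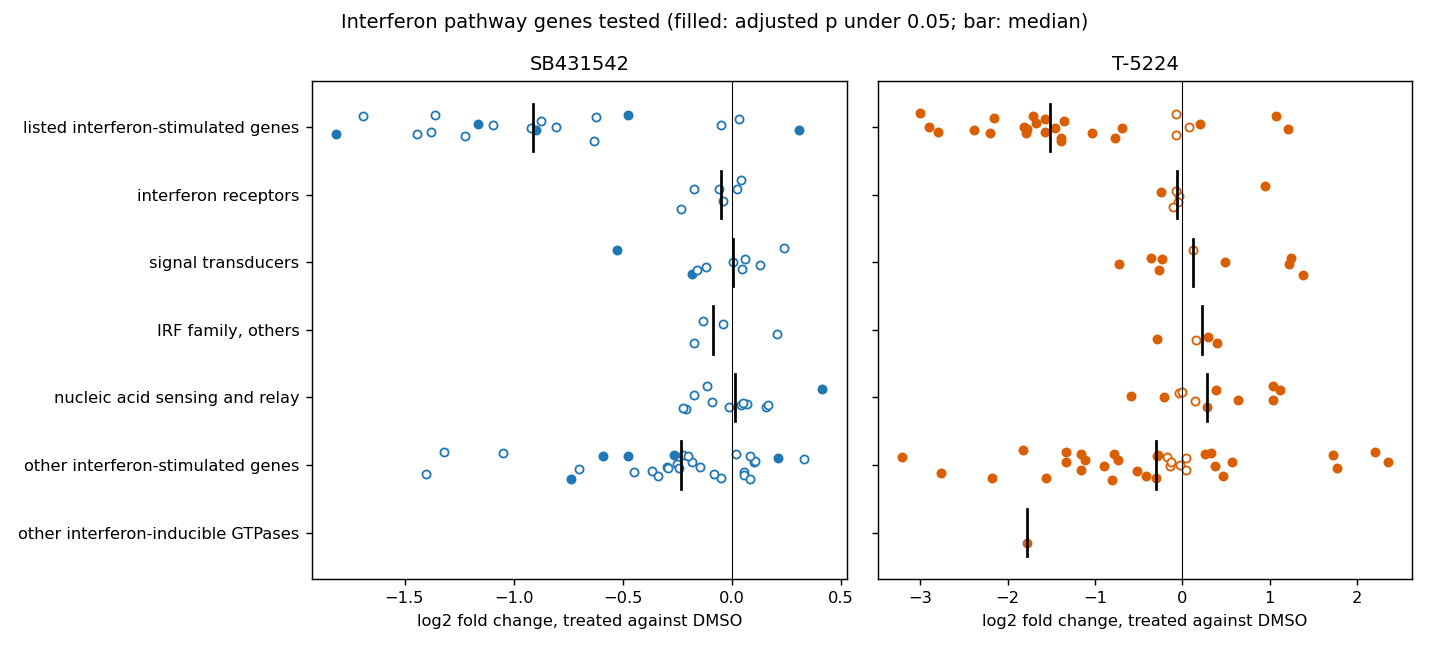
Log2 fold change of every tested gene of the 39 and of the pathway lists, with SB431542 (left) and with T-5224 (right), filled where the adjusted p was under 0.05 and with a bar at the median of each list. The medians of the 39-gene list lie at -0.91 and -1.52, and those of the other lists lie nearer to 0 except for the single GTPase gene tested with T-5224.

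Of 9 signal transducers, 2 were lower with SB431542 and none was higher (limma, also at an unadjusted p under 0.05), and 4 were lower and 4 higher with T-5224. Jak1, the kinase shared by interferon receptors, was lower by 0.18 ± 0.05 and 0.23 ± 0.06 on the log2 scale, and Ptpn6, a phosphatase of the pathway, by 0.52 ± 0.09 and 0.72 ± 0.08, with SB431542 and T-5224 in turn. Ptpn2, a phosphatase that removes phosphate from JAK1, rose with T-5224 from 9.43 and 9.26 to 25.4 and 24.7 RPKM (1.38 ± 0.06, limma adjusted p = 4.03e-09).

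None of 4 IRF family genes passed with SB431542 (limma, and none had an unadjusted p under 0.05), and with T-5224, 1 was lower and 2 higher. Of 12 and 11 sensing and relay genes tested with SB431542 and T-5224, Tlr3 passed with both inhibitors in opposite directions. Tlr3, the endosomal receptor for double-stranded RNA, was 1.33-fold higher with SB431542 and 1.16-fold lower with T-5224 (limma adjusted p = 0.0230 and 0.0214). The SB431542 call was not kept without every single library, with limma adjusted p up to 0.0894. Of the other sensing genes none passed with SB431542 (limma, 3 at an unadjusted p under 0.05), while with T-5224, 2 of the 11 were lower, Tlr3 among them, and 6 were higher.

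The further interferon-stimulated genes split. With T-5224, 19 of 34 were lower and 9 higher, with a median of -0.30, and with SB431542, 4 of 30 were lower and 1 higher, with a median of -0.23. Lgals9, which encodes galectin-9, fell 9.25-fold with T-5224, from 12.4 and 12.2 to 0.765 and 1.02 RPKM, and was at 11.04, 11.3 and 6.34 RPKM in DMSO and 8.31, 12.4 and 8.72 RPKM with SB431542. Apol9a, Apol9b and Ifi27l2a also fell with T-5224, by 6.81-fold, 4.54-fold and 3.56-fold, and reads may be shared between the near-identical Apol9a and Apol9b. In the opposite direction, Isg20, an RNA exonuclease, rose 5.13-fold, from 1.67 and 1.51 to 9.42 and 11.1 RPKM. The chemokine genes Cxcl10 and Ccl5 rose 3.40-fold and 3.32-fold, Cxcl10 from 1.08 and 1.75 to 5.49 and 6.36 RPKM and Ccl5 from 0.824 and 1.77 to 5.11 and 5.41 RPKM. Casp4, an inflammatory caspase, was listed at 0 and 0.088 RPKM in DMSO and at 1.80 and 2.24 RPKM with T-5224. In this experiment Lgals9, Apol9a and Apol9b reached a mean of 1 RPKM in DMSO alone, and Casp4 with T-5224 alone.

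Parp10 and Tapbp, the latter a chaperone that loads MHC class I, were lower with both inhibitors, Parp10 by 1.67-fold and 1.75-fold and Tapbp by 1.39-fold and 2.51-fold with SB431542 and T-5224 in turn. In the SB431542 experiment Parp10 reached a mean of 1 RPKM in DMSO alone. Nmi, which binds STAT proteins, was lower with SB431542 by 0.59 ± 0.12 on the log2 scale. Tor3a was 1.20-fold lower with SB431542 and 1.38-fold higher with T-5224, and Samhd1, which degrades the nucleotides that viruses need, was 1.16-fold higher with SB431542 and 1.22-fold lower with T-5224.

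Interferon genes themselves were scarcely detected. Of 10 names, 4 were listed in each table and none reached the level tested. Ifnb1, named after its values were seen, was listed at 0 in all DMSO libraries of both tables, at 0.300 and 0.418 RPKM with T-5224, which is about 12 and 16 reads over its 770 bases, and at 0.057 RPKM, about 2 reads, in 1 of 3 SB431542 libraries. Among 18 further interferon-inducible GTPases, Irgm2, the one gene tested, fell with T-5224 from 1.92 and 2.26 to 0.235 and 0.274 RPKM (-1.78 ± 0.14, limma adjusted p = 3.25e-07), though only its DMSO libraries reached a mean of 1 RPKM. With SB431542 it was untested, at 0.787, 1.12 and 0.349 RPKM in DMSO and 0.313, 0.224 and 0.137 RPKM in treated libraries.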

How the data were processed

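RNA-seq of ASZ001 cells was made with a stranded mRNA kit, and the authors used TopHat for alignment to mm9 and HOMER for the deposited RPKM values, 1 per gene and library. The authors tested counts with DESeq2, which these tables do not allow. All 10 columns were used and 0 were left out. DMSO libraries of the second table are called 1 and 2 after its columns, though the sample labels number them otherwise. Groups came from the sample labels.

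Rows named by a date were left out, 22 and 23. Genes averaging at least 1 RPKM over a table were tested on log2(RPKM + 0.5) with limma 3.58.1 in R 4.3.3, empirical Bayes with a mean-variance trend, each inhibitor against its own DMSO libraries, and p-values were adjusted by Benjamini-Hochberg over all genes tested. A gene passed with an adjusted p under 0.05, and the further limit of 2-fold that the study used was an alternative. The fits were tested on simulated data. Ratios between DMSO libraries are the highest over the lowest RPKM. Read numbers per library were worked out from RPKM of small RNA genes, which lie on steps of whole reads.

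The 39 genes and the lists were chosen with earlier results of these data known. All members are named, and of the lists those genes that passed with both inhibitors or were among the 5 largest passing changes in a direction with one. Gene positions are from GENCODE on NCBIM37 (mm9), and promoter letters from RefSeq on GRCm38.p6. The alternatives were pseudocounts of 0.1 and 1, no filter or a mean of at least 5 RPKM, median centring, quantile normalization, no trend, the replicate number as a block, and each library left out. Leaving out both libraries numbered 2 was added after the data were seen. A few genes of the pathway are not reported here.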

Additional observations from a re-analysis of the deposited data

How the results depend on the processing

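With SB431542, 4 genes were lower as reported, and none was lower with no filter on low values or without both libraries numbered 2 (limma, with 27 and 13 at an unadjusted p under 0.05, and 5.32% and 1.08% of all genes lower). The share of all genes at an unadjusted p under 0.05 was not counted. There were 2 lower with quantile normalization (9.26% of all genes), 2 without the mean-variance trend (9.80%), 2 with a fold change over 2 (0.581%), and 0 to 14 when 1 library was left out (3.98% to 17.5%). Over all genes tested, deviations of same-numbered libraries correlated at -0.148, 0.151 and -0.0949, so replicate numbers were not taken as pairs. In the members, though, library 2 had the highest median and library 3 the lowest in both groups. Correlations over all genes cannot decide whether the members varied in pairs, and this was not tested. The replicate block gave 14 lower (6.45% of all genes), among them Ifit1, Usp18, Igtp, Parp9 and Lgals3bp, which reached a mean of 1 RPKM in DMSO alone. The single higher gene, Psmb10, became 0 without both libraries numbered 2 and with the 2-fold limit, and 0 to 1 when a library was left out. With T-5224, 20 lower became 28 of 39 with no filter (29.8% of all genes). At a mean of at least 5 RPKM, 11 of the 14 members tested were lower (38.4% of all genes). The 3 higher genes gave 2 to 4 in all alternatives. Signs turned in genes that did not pass. When 1 library was left out, log2 fold changes with SB431542 ran from -0.0097 (without DMSO library 3) to 0.093 for Irf1 and from -0.11 to 0.0096 (without DMSO library 1) for Ifit2. With T-5224 they ran from -0.25 to 0.10 (without DMSO library 2, and 0.05 without T-5224 library 2) for Rsad2, from -0.056 (without T-5224 library 2) to 0.20 for Psmb10 and from -0.26 to 0.11 (without DMSO library 1) for Ifi44. With quantile normalization Rsad2 was at 0.11 and Ifi44 at 0.13. Over genes and alternatives, 206 values with SB431542 and 262 with T-5224 kept direction and side of the threshold, 29 and 3 fell below it, and 23 with SB431542 rose above it. The causes were not tested. A group left with 1 library was assumed to vary like the other. Counting error was not separable per gene from RPKM.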
